A study of Mus musculus with 222 samples.

Results

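The macrophage genes measured here were Csf1r, Csf1, Adgre1, Cd68, Mrc1, Cd163, C1qa, C1qb, C1qc and Itgam, 10 of the 19938 genes that had a probe set of their own on the array. The rule that gives the genes names them and uses no value, though they were named with earlier results of these data known. Each of the 10 had exactly 1 probe set annotated to that gene alone, so no choice between probe sets was needed and no gene was dropped. RNA from mouse mammary tumors (214 arrays) and normal mammary glands (8 arrays) was hybridised to Affymetrix mouse gene 1.0 ST arrays, 1 sample on each. By their names, 2 of the F1BX arrays (035T1R and 246T1R) repeat tumors that have another array, and each array is counted as a tumor in what follows. The tumors arose in MMTV-ErbB2 mice, which carry the ErbB2 protooncogene under a promoter of the mouse mammary tumor virus that is active in mammary epithelium, so every tumor shares that transgene. Of the tumor arrays, 26 came from FVB/N mice (FVB), 28 from the cross of C57BL/6 with FVB/N (F1) and 160 from the backcross of F1 to FVB/N (F1BX), in which each mouse carries its own mix of C57BL/6 and FVB/N alleles. Array names of the F1BX form also occur once among the F1 arrays (051T1) and once among the FVB arrays (063T1), and both were kept in their labelled groups. The normal glands came from 3 FVB and 2 F1 mice with the transgene and from 3 F1 wild type mice. No age was given for the tumor samples or the glands in the labels. All values are log2 expression.

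The arrays fell into a wide set of 188 arrays and a narrow set of 34 arrays, by the interquartile range of each array's own values, which was 3.04 to 3.35 in the wide set and 1.86 to 2.62 in the narrow set. Of the wide-set arrays, 140 were of F1BX tumors, 22 of F1 tumors and 26 of FVB tumors, whereas 20 F1BX tumors, 6 F1 tumors and every gland were in the narrow set. No source used here says why. Levels were therefore set side by side only within a set, and differences between sets are given apart. In the wide set, 38 mice gave at least 2 tumors, by the names of the arrays. Erbb2 was 8.27 to 10.48 in glands and had a median of 12.31 in the tumors of the narrow set, where 3 tumors (092T1, F1_26T1 and 076T1) did not exceed the highest gland.

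Macrophages engulf dying cells, debris and antibody- or complement-coated particles, and they are a large share of the immune cells in the mammary gland and in many mammary tumors. Most of them depend on the receptor CSF1R, which is activated by the cytokines CSF1 and IL-34. ADGRE1 (F4/80) is a surface receptor long used to mark mouse macrophages, CD68 is a lysosomal glycoprotein, MRC1 (CD206) is a mannose receptor, CD163 takes up haemoglobin bound to haptoglobin, and ITGAM (CD11b) is the alpha chain of complement receptor 3, also present on neutrophils and other myeloid cells. C1QA, C1QB and C1QC are the chains of C1q, the recognition subunit that opens the classical complement pathway, and macrophages are a main source of it. Whole tissue was measured, so fewer macrophages and less RNA per macrophage cannot be told apart.

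The genes C1qb, C1qc and C1qa follow each other without another gene between them on chromosome 4 of the mouse genome (RefSeq, GRCm38.p6). The promoters of C1qb, C1qc, Mrc1 and Cd163 are shown because C1qb and C1qc had the highest correlation of all pairs among tumors, while Mrc1 and Cd163 followed each other more closely than either followed the C1q chains. Each is the RefSeq sequence of GRCm38.p6 from 250 bases before to 50 bases after the start that the RefSeq promoter table uses, which for C1qc and Cd163 is not the outermost annotated base of the gene, read 5′ to 3′ on the strand of the gene: C1qb at chr4:136886151-136886450 on the minus strand, C1qc at chr4:136892865-136893164 on the minus strand, Mrc1 at chr2:14229164-14229463 on the plus strand and Cd163 at chr6:124304401-124304700 on the plus strand. Capitals mark GAGGAA or GGAAGT on either strand (TTCCTC and ACTTCC are their complements), letters found in sites of the myeloid factor PU.1, and the 2 overlap where they run together.
C1qb: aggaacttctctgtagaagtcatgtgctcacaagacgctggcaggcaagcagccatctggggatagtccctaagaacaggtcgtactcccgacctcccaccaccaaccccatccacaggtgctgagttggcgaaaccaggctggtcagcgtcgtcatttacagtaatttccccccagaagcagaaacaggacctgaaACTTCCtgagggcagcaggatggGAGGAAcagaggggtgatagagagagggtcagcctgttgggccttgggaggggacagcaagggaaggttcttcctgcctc
C1qc: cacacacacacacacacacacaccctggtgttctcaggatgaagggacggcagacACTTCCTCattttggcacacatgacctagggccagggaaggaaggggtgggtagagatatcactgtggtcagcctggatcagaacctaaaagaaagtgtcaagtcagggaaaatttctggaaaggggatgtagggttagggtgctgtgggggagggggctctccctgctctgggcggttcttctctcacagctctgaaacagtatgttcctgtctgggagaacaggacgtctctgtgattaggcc
Mrc1: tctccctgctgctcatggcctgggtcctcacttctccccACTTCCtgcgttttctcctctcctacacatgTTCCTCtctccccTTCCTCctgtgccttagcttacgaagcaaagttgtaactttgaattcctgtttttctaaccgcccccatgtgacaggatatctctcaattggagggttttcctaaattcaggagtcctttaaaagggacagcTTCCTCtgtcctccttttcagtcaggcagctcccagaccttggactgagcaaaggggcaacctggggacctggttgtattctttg
Cd163: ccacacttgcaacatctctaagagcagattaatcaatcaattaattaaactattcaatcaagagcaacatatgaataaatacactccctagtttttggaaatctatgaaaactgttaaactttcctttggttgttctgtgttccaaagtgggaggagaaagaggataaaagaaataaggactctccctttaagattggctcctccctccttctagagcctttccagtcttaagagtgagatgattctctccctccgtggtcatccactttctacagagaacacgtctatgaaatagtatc
Of the 10 genes, 7 had a promoter in the RefSeq table used here (Mrc1, Csf1, C1qb, C1qc, Cd163, Itgam and Cd68). GAGGAA was present in 5 of these 7 windows and in 28.3% of the 32851 promoters of the same length, and GGAAGT in 4 of the 7 and in 23.8%. Both were present in C1qb, C1qc, Mrc1 and Cd68, 4 of the 7, against 8.65% of all promoters. Neither was present in these windows of Cd163 or Csf1. These are matches of letters, and binding was not measured.

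The first question was whether the macrophage genes differed between tumors and normal glands. Among the 26 tumors and 8 glands of the narrow set, Csf1, the ligand, was 7.71-fold lower in tumors, whereas C1qa and C1qc were 2.28-fold and 2.15-fold higher. The receptor Csf1r and the markers Adgre1, Cd68, Mrc1, Cd163 and Itgam did not pass the threshold. A probe set was called at a false discovery rate of at most 0.005 with a fold of at least 2 by limma, and 7.37% of all 35556 probe sets were called higher and 4.76% lower. Of the 10 genes, 2 were called higher and 1 lower. Their median log2 difference was 0.27, against -0.09 over all probe sets.

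Csf1 was 11.44, 11.72 and 11.56 in the wild type F1 glands, 11.58 and 11.10 in the MMTV-ErbB2 F1 glands and 11.85, 11.56 and 9.24 in the MMTV-ErbB2 FVB glands. In the 26 tumors it had a lowest value of 7.43, a median of 8.17 and a highest of 9.64. All tumors but 092T1 were below the lowest gland, and 25 of 26 were thus outside the range of the glands. The log2 difference was -2.95 (SE 0.236, adjusted p = 1.11e-12 from limma). FVB MMTV-ErbB2 gland replicate 3, at 9.24, lay far from the other glands, and without it the difference was -3.23.

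The same gland was low in other cytokines, and these moved with Csf1 between tumors and glands. Il6 was 6.71 in FVB MMTV-ErbB2 gland replicate 3 and 11.09 to 12.73 in the other glands, against 3.86 to 5.09 in the tumors of the narrow set. The monocyte chemoattractant Ccl2 was 9.49 in that gland and 11.25 to 12.91 in the others, and no tumor exceeded 8.83. Csf3 (8.63) and Il34 (7.41) in that gland lay within the range of the other glands. The part that inflammatory genes such as Il6 and Ccl2, or the narrow spread of that array, have in the difference of Csf1 was not tested. Among 9 measured genes of CSF and IL-34 signaling, 4 were lower in tumors: the growth factors Csf2 (-3.01) and Csf3 (-2.76), the receptor subunit Csf2rb (-1.95) and the transcription factor Irf8 (-1.42). Il34, the other ligand of CSF1R, did not pass the threshold, at -0.59 (SE 0.178, adjusted p = 0.00612 from limma).

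C1qa was 8.68, 8.99 and 8.81 in the wild type F1 glands, 8.52 and 8.01 in the MMTV-ErbB2 F1 glands and 9.09, 8.36 and 8.43 in the MMTV-ErbB2 FVB glands. In the tumors it ranged from 8.67 to 11.25 with a median of 9.58. The groups overlapped little: 24 of 26 tumors were above the highest gland and the other two were within the range of the glands. The log2 difference was 1.19 (SE 0.249, adjusted p = 1.38e-04 from limma).

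C1qc was 8.68, 9.16 and 8.96 in the wild type F1 glands, with a mean of 8.93. In the MMTV-ErbB2 glands it was lower in most, at 8.07 and 8.13 (F1) and 9.02, 8.16 and 7.83 (FVB). The tumors ranged from 8.83 to 11.25, with a median of 9.38 and a mean of 9.61. Of the tumors, 19 of 26 were above the highest gland, and all 26 were above the median gland. The log2 difference was 1.11 (SE 0.254, adjusted p = 4.14e-04 from limma). C1qb had a log2 difference of 0.77 (SE 0.242, adjusted p = 0.0078 from limma) and missed both the fold and the false discovery rate. For C1qb, 10 of 26 tumors were above the highest gland (9.61), and 25 of 26 were above the median gland. The mean of C1qb was 9.44 in wild type F1 glands, 8.47 in F1 and 8.81 in FVB MMTV-ErbB2 glands, and 9.73 in tumors. These differences pool all kinds of gland, and tumors were not tested against the wild type glands alone. When only the 6 F1 tumors and the 5 F1 glands entered, C1qa was 1.43 higher (adjusted p = 0.00487) and C1qc was 1.28 higher but past the false discovery rate limit no longer (adjusted p = 0.0117 from limma).

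Adgre1 was 0.59 higher in tumors (SE 0.270, adjusted p = 0.0647), with 9 of 26 tumors above the highest gland. Cd68 was -0.67 (SE 0.344, adjusted p = 0.102 from limma), with 8.09 to 10.96 in glands and 8.22 to 11.83 in tumors. The 8.09 was FVB MMTV-ErbB2 gland replicate 3, and the other glands were 9.60 to 10.96. For Cd68, 23 of 26 tumors were below the median gland. Csf1r, Mrc1, Cd163 and Itgam had differences of 0.25, 0.01, 0.29 and -0.01, and their 95% intervals reached from -0.88 to 0.90 for Mrc1 and from -0.71 to 0.69 for Itgam. For Mrc1, 5 tumors lay above and 5 below all glands, and for Itgam 6 lay above and 13 below. For Mrc1 and Itgam the tumors were thus spread to both sides of the glands. For Csf1r 5 lay above and 1 below all glands, and for Cd163 5 lay above and 0 below.

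Genes of other cells moved in the same comparison, mostly downward. All 8 measured T cell genes were lower in tumors, as were 6 of 7 B and plasma cell genes, 4 of 6 mast cell genes, 6 of 8 endothelium genes, 5 of 8 fibroblast genes, 6 of 7 basal epithelium genes and 4 of 5 MHC class II genes. The mean of the T cell genes was 7.50 to 9.07 in glands and 6.36 to 6.74 in tumors, with no overlap. Of neutrophil and dendritic cell genes, 1 of 8 and 1 of 7 were lower, and of adipocyte genes 2 of 7. Proliferation genes rose in 6 of 7, with Top2a at 2.17, Plk1 at 2.02 and Bub1 at 1.97, and luminal epithelium genes rose in 3 of 8, with Elf5 at 2.23, and fell in 1. The part of this change in cell makeup in the levels of the macrophage genes was not tested.

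Of the other genes of macrophage function, 1 passed the threshold upward. Monocyte recruitment genes were lower in 3 of 8, all chemokines: Ccl2 (-4.69), Ccl7 (-4.17) and Ccl5 (-3.65). Of 18 phagocytosis and lysosome genes, 4 were lower (Gpnmb, Axl, Fcgr2b and Marco) and none was higher. Of 10 genes of tissue-resident macrophages, Lyve1 and Timd4 were lower. Among 9 genes of macrophage activation, Arg1, which splits arginine, was 2.41 higher, and Il6 (-6.88), Il1b, Tnf and Il10 were lower. Of 9 other complement components and receptors, C1s1 (-3.55), C2 and Cfb were lower. The C1q chains C1qa and C1qc thus rose where C1s1, a protease that acts after C1q in the same pathway, fell.

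**Figure D1:**
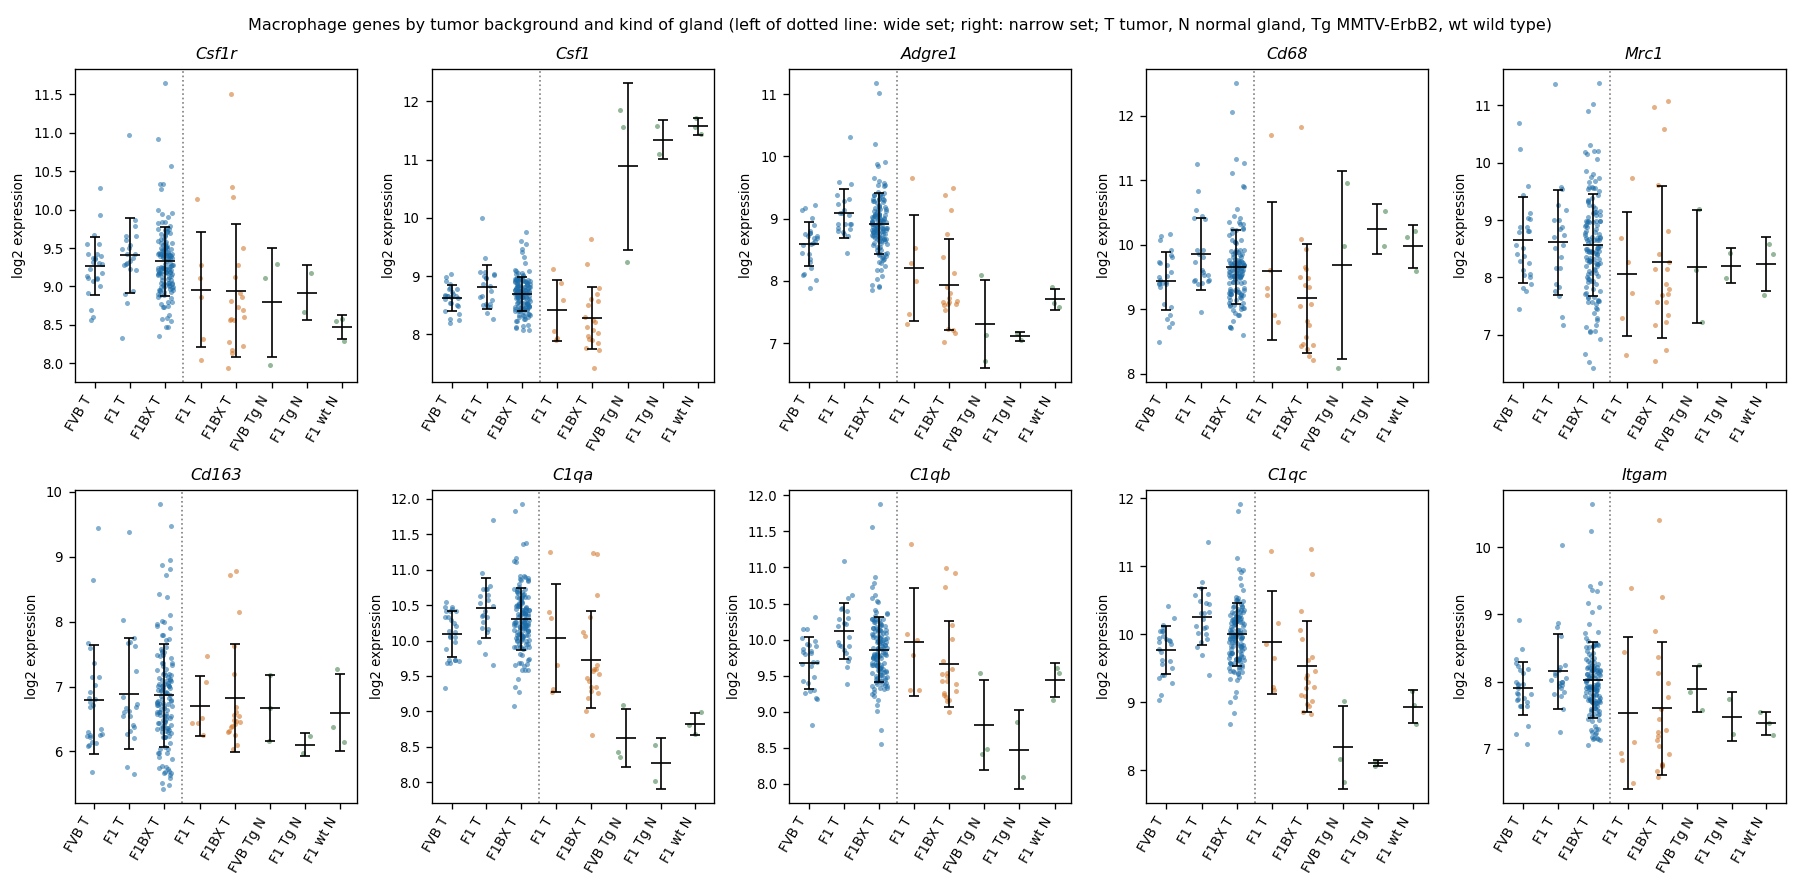
Log2 expression (y axis) of each macrophage gene, 1 point per array, by group (x axis). Bars give the mean and SD. The dotted line parts the wide set (left) from the narrow set (right). In the narrow set, Csf1 lay below the lowest gland in 25 of 26 tumors, and C1qa lay above the highest gland in 24 of 26.

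Next, tumors of the 3 backgrounds were compared within the wide set, where the question was whether the background of the mouse goes with the level of macrophage genes. Adgre1, C1qa, C1qb and C1qc were higher in F1 than in FVB tumors, by 1.29-fold to 1.41-fold. F1BX tumors lay between the other groups in the mean of these 4 genes, and Adgre1 was also higher in F1BX than in FVB tumors, a call that was lost when the narrow set entered the fit. Csf1r, Csf1, Cd68, Mrc1, Cd163 and Itgam did not pass in any of these comparisons. With the mouse as a random block and an adjusted p under 0.05 by limma, 5.78% of probe sets were higher and 6.47% lower in F1 than in FVB tumors, and 4 of the 10 genes were higher and 0 lower. These 4 followed each other closely among the wide-set tumors (Pearson r = 0.889 to 0.964), so they are not 4 separate results. The median log2 difference of the 10 was 0.31, against -0.02 over all probe sets.

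Adgre1 ranged from 7.89 to 9.22 with a median of 8.67 in 26 FVB tumors, from 8.44 to 10.31 with a median of 8.99 in 22 F1 tumors and from 7.85 to 11.18 with a median of 8.89 in 140 F1BX tumors. The groups overlapped, and 21 of 22 F1 tumors were above the FVB median. The F1 tumors were higher than the FVB tumors by 0.49 (SE 0.135, adjusted p = 0.00859 from limma). C1qc ranged from 9.04 to 10.42 with a median of 9.87 in FVB tumors and from 9.40 to 11.36 with a median of 10.27 in F1 tumors, with 19 of 22 F1 tumors above the FVB median. Its difference was 0.49 (SE 0.130, adjusted p = 0.00568 from limma).

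C1qb differed by 0.45 (SE 0.126, adjusted p = 0.0101) and C1qa by 0.36 (SE 0.124, adjusted p = 0.0378 from limma). With 1 tumor per mouse, C1qa no longer passed (0.36, adjusted p = 0.0741), and when all arrays of both sets were fitted without regard to the set, neither Adgre1 (0.28, adjusted p = 0.288) nor C1qa (0.26, adjusted p = 0.231) passed. The narrow set held F1 but no FVB tumors, so that fit mixes the array set with the background. In F1BX tumors, narrow minus wide set was -0.98 for Adgre1 and -0.58 for C1qa. Without 051T1 and 063T1 all 4 genes passed, C1qa with an adjusted p of 0.0499 from limma. Cd68 was 0.42 higher in F1 tumors and missed the threshold (SE 0.163, adjusted p = 0.0736 from limma). Mrc1 and Cd163 differed by -0.05 and 0.08, with 95% intervals of -0.56 to 0.45 and -0.39 to 0.55, so that a difference as large as that of Adgre1 lay within the interval of Cd163.

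In F1BX against FVB tumors, 3.58% of probe sets were higher and 3.16% lower, and 1 of the 10 genes was higher. Adgre1 was higher by 0.32 (SE 0.099, adjusted p = 0.0275 from limma), with 107 of 140 F1BX tumors above the FVB median. With all arrays of both sets and the set as a term it was 0.32 and did not pass (adjusted p = 0.0553), nor did it pass without that term (0.19, adjusted p = 0.372 from limma). The fit without the term mixes the array set with the background, as the narrow set held no FVB tumor. Without 051T1 and 063T1 Adgre1 passed (0.30, adjusted p = 0.0412 from limma). C1qa, C1qb and C1qc had differences of 0.21, 0.19 and 0.24 and adjusted p values of 0.149, 0.230 and 0.117. In F1BX against F1 tumors, 1.97% of probe sets were higher and 1.68% lower, and none of the 10 genes was called, although 7316 probe sets had an unadjusted p under 0.05. C1qb (-0.26, unadjusted p = 0.0106) and C1qc (-0.25, unadjusted p = 0.0154) were among these. The FVB tumors served in 2 of these comparisons and the F1 tumors in 2, so the comparisons are not independent.

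Among the other genes of these lists, antigen presentation genes moved in the same tumors. In F1 against FVB tumors 4 of 5 MHC class II genes were higher: H2-Eb1 (1.88), H2-Ab1 (0.93), H2-Aa (0.83) and Cd74 (0.80). Monocyte recruitment genes were higher in 2 of 8, the receptor Ccr2 (0.65) and the chemokine Cx3cl1 (0.36). Phagocytosis genes were higher in 3 of 18 (Fcer1g, Lgals3 and Fcgr3) and lower in 1, the scavenger receptor and fatty acid transporter Cd36 (-1.41). Itgax (CD11c), an integrin of dendritic cells and some macrophages, was 0.72 higher, the B and plasma cell gene Jchain was 0.81 higher, and of 9 macrophage activation genes Il1b was higher (0.55) and Arg1 lower (-1.48). Single genes were also higher in the endothelium (Vwf, 0.56), basal epithelium (Acta2, 0.60) and luminal epithelium (Cldn7, 0.34) lists. No gene of the lists for tissue-resident macrophages, CSF and IL-34 signaling, T cells, neutrophils, dendritic cells, mast cells, fibroblasts or proliferation was called in F1 against FVB tumors.

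In F1BX against FVB tumors, H2-Eb1 (0.97), Itgax (0.46), Lgals3 (0.45), H2-Ab1 (0.42), Fcer1g (0.31) and Ctss (0.27) were higher and Arg1 (-1.10) and Cd36 (-0.88) lower. In F1BX against F1 tumors, the genes of the lists that were called were H2-Eb1 (-0.90), Cd74 (-0.54), H2-Aa (-0.52) and H2-Ab1 (-0.51), which were lower, and the scavenger receptor Marco (0.21), which was higher. The study reports a shorter tumor latency in FVB than in F1 mice, with F1BX mice between them. The part of these other cells, of the age of the mouse or of strain alleles under the probes in the macrophage genes was not tested.

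**Figure D2:**
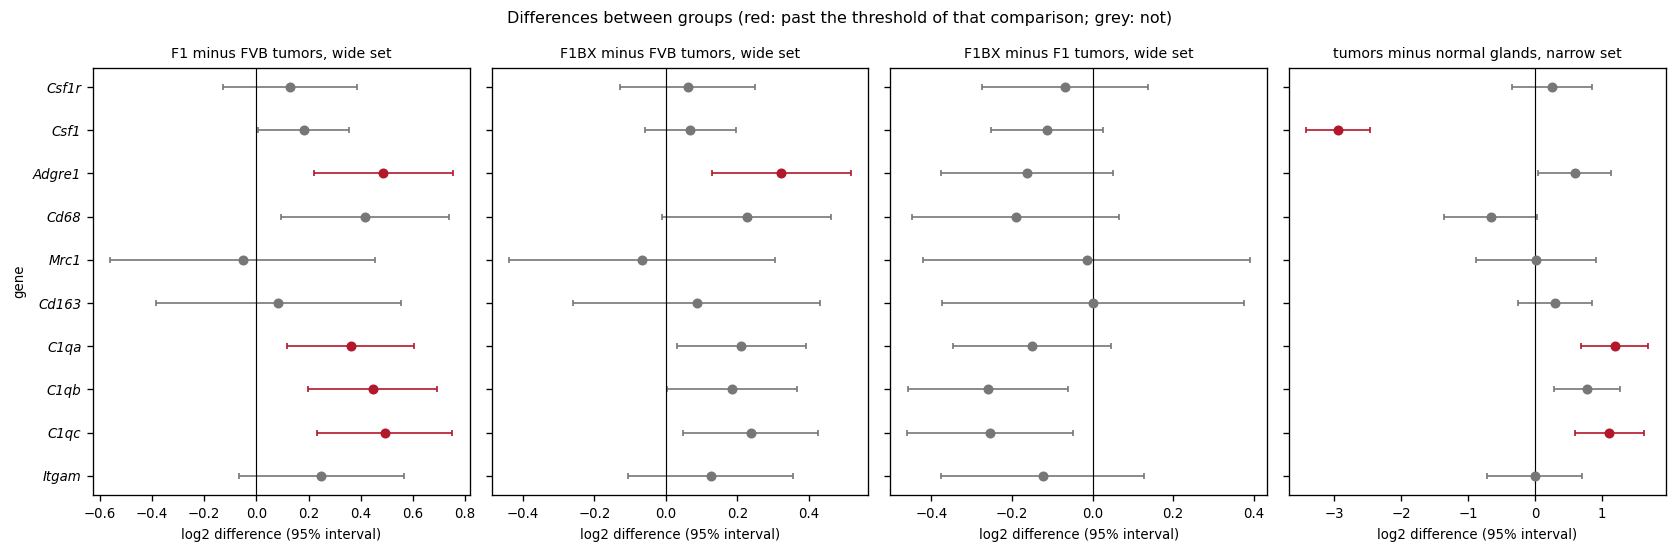
Log2 difference (x axis) of each macrophage gene (y axis) in 4 comparisons, with its 95% interval; the scale differs between panels. Red points passed the threshold of the comparison. Adgre1, C1qa, C1qb and C1qc were higher in F1 than in FVB tumors, and Csf1 stood at -2.95 between tumors and glands.

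In the narrow set, which held no FVB tumor, 20 F1BX and 6 F1 tumors were compared. No probe set was called (0% higher and 0% lower by limma, with 1170 at an unadjusted p under 0.05), and the 10 genes differed by -0.43 for Cd68 to 0.21 for Mrc1. The interval for C1qc, -0.94 to 0.23, included the difference of the wide set, -0.25. The difference between F1BX and F1 tumors was not shown to vary with the set: the test of the interaction called 0% of probe sets higher and 0% lower (2181 at an unadjusted p under 0.05), and the 10 genes had values from -0.24 to 0.21.

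Among the normal glands, none of the 10 genes was called. The gland comparisons came from a fit of all 34 narrow-set arrays. Their intervals and p-values thus rest largely on the spread among the 26 tumors. Between the 2 MMTV-ErbB2 and the 3 wild type F1 glands, 0.667% of probe sets were higher and 0.253% lower (3453 at an unadjusted p under 0.05 by limma). In both MMTV-ErbB2 glands Adgre1, C1qa, C1qb and C1qc were below all 3 wild type glands, and Csf1r was above all 3. With 2 against 3 glands such separation is easily reached, and its share over all probe sets was not counted. Adgre1 was 7.16 and 7.06 against 7.59, 7.90 and 7.64, and C1qb was 8.86 and 8.09 against 9.17, 9.61 and 9.53. The difference of C1qb was -0.96 (95% interval -2.05 to 0.12, adjusted p = 0.605 from limma). In the same glands 2 of 10 tissue-resident macrophage genes, Lyve1 (3.55) and Timd4 (2.17), and 1 of 18 phagocytosis genes, Marco (2.69), were higher, while the medians of these lists were -0.04 and -0.11. Of mast cell genes 4 of 6 were higher, with Cpa3 at 3.27 and Mcpt4 at 3.07, and of T cell genes 4 of 8. Csf2 (2.17), 1 of 7 B and plasma cell genes and 2 of 7 dendritic cell genes were also higher, and the smooth muscle genes Cnn1 (-2.79) and Myh11 (-2.16), 2 of 7 basal genes, were lower. With the 8 glands fitted alone, no probe set was called.

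Between the 2 F1 and the 3 FVB MMTV-ErbB2 glands, 0.00844% of probe sets were higher and 0.00281% lower, and the differences of the 10 genes ran from -0.57 for Cd163 to 0.57 for Cd68. For none of the 10 did the F1 glands lie all above or all below the FVB glands. Cd68 was 10.96, 9.98 and 8.09 in the FVB glands and 10.52 and 9.97 in the F1 glands, so its spread among FVB glands exceeded the difference.

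Tumors of one background also differed between the sets. In F1BX tumors, 37.9% of probe sets were higher and 46.9% lower in the 20 narrow-set tumors than in the 140 wide-set tumors by limma, and 7 of the 10 genes were lower: Csf1r, Csf1, Adgre1, Cd68, C1qa, C1qc and Itgam. Adgre1 had the largest of these differences, -0.98 (SE 0.123, adjusted p = 5.51e-13), with 13 of 20 narrow-set tumors below all wide-set tumors. After quantile normalization of all arrays together only Adgre1 passed, and Csf1r turned to 0.05 (adjusted p = 0.722). By their names, 2 arrays of the narrow set repeat tumors of the wide set. Adgre1 was 9.03 in 035T1 and 7.73 in 035T1R, and 8.67 in 246T1 and 7.80 in 246T1R. All 10 genes were lower in the repeat array in both tumors, by 0.07 to 1.30 in 035T1 and by 0.20 to 0.88 in 246T1.

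The macrophage genes varied together from tumor to tumor. In the 188 tumors of the wide set, all 45 pairs of the 10 genes had a positive Pearson correlation, with a median of 0.723. The median correlation of each of the 10 with the other 19937 genes lay between -0.0714 and -0.0417. The C1q chains and Adgre1 had the highest correlations among themselves, and the gene of the 10 nearest to Cd163 was Mrc1. All correlations given are over all tumors of the set unless 1 tumor per mouse is named, while every permutation p was computed with 1 tumor per mouse. The two-sided permutation test with 100000 resamples, adjusted over the 45 pairs, gave p under 0.05 for 44 pairs by Pearson r and for 41 by Spearman rho.

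C1qb and C1qc had r = 0.964 and rho = 0.949 over 188 tumors. With 1 tumor per mouse r was 0.962 (adjusted permutation p = 1.18e-05, from the smallest p that 100000 permutations can give). Within FVB, F1 and F1BX tumors r was 0.947, 0.940 and 0.967, and without the 2 tumors farthest from the median it was 0.957. C1qa had r = 0.943 with C1qb and 0.941 with C1qc. Among all 19937 other genes, each C1q chain had the other two as its nearest. Adgre1 had r = 0.889, 0.904 and 0.902 with C1qa, C1qb and C1qc, and 0.847 with Csf1r.

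Mrc1 and Cd163 had r = 0.825 and rho = 0.791, and r = 0.906, 0.840 and 0.814 within FVB, F1 and F1BX tumors. With the C1q chains, the correlations of Mrc1 were 0.550 to 0.597 and those of Cd163 0.322 to 0.406. In the narrow set they were higher, 0.846 to 0.872 for Mrc1 and 0.775 to 0.815 for Cd163, and Mrc1 with Cd163 was 0.918, so the separation seen in the wide set was smaller there. Cd163 and Adgre1 had r = 0.355 and rho = 0.225, and with 1 tumor per mouse 0.243 and 0.130 (adjusted permutation p = 0.00555 for r and 0.143 for rho). In the narrow set their r was 0.797. The difference between such correlations was not tested. Cd68 and Itgam had r = 0.788 and rho = 0.670.

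Csf1 and its receptor Csf1r had r = 0.631 and rho = 0.536 over 188 tumors, and r = 0.553 without tumors 187T1 and F21T3. With 1 tumor per mouse r was 0.592 (adjusted permutation p = 1.18e-05). Csf1 had its lowest correlation with Cd163 (r = 0.190 and rho = 0.00466). With 1 tumor per mouse these were 0.0957 and -0.0245 (adjusted permutation p = 0.277 for r and 0.781 for rho). Il34 had r = 0.213 and rho = 0.117 with Csf1r (unadjusted permutation p = 0.002 and 0.126). Within FVB, F1 and F1BX tumors r was -0.336, 0.168 and 0.283, and no test was made within or between backgrounds. In the narrow set Il34 and Csf1r had r = 0.660. With Csf1, Il34 had r = 0.027 and rho = -0.124 in the wide set (unadjusted permutation p = 0.328 and 0.441), with r = -0.584, -0.0391 and 0.0798 within FVB, F1 and F1BX tumors, and r = 0.470 in the narrow set.

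**Figure D3:**
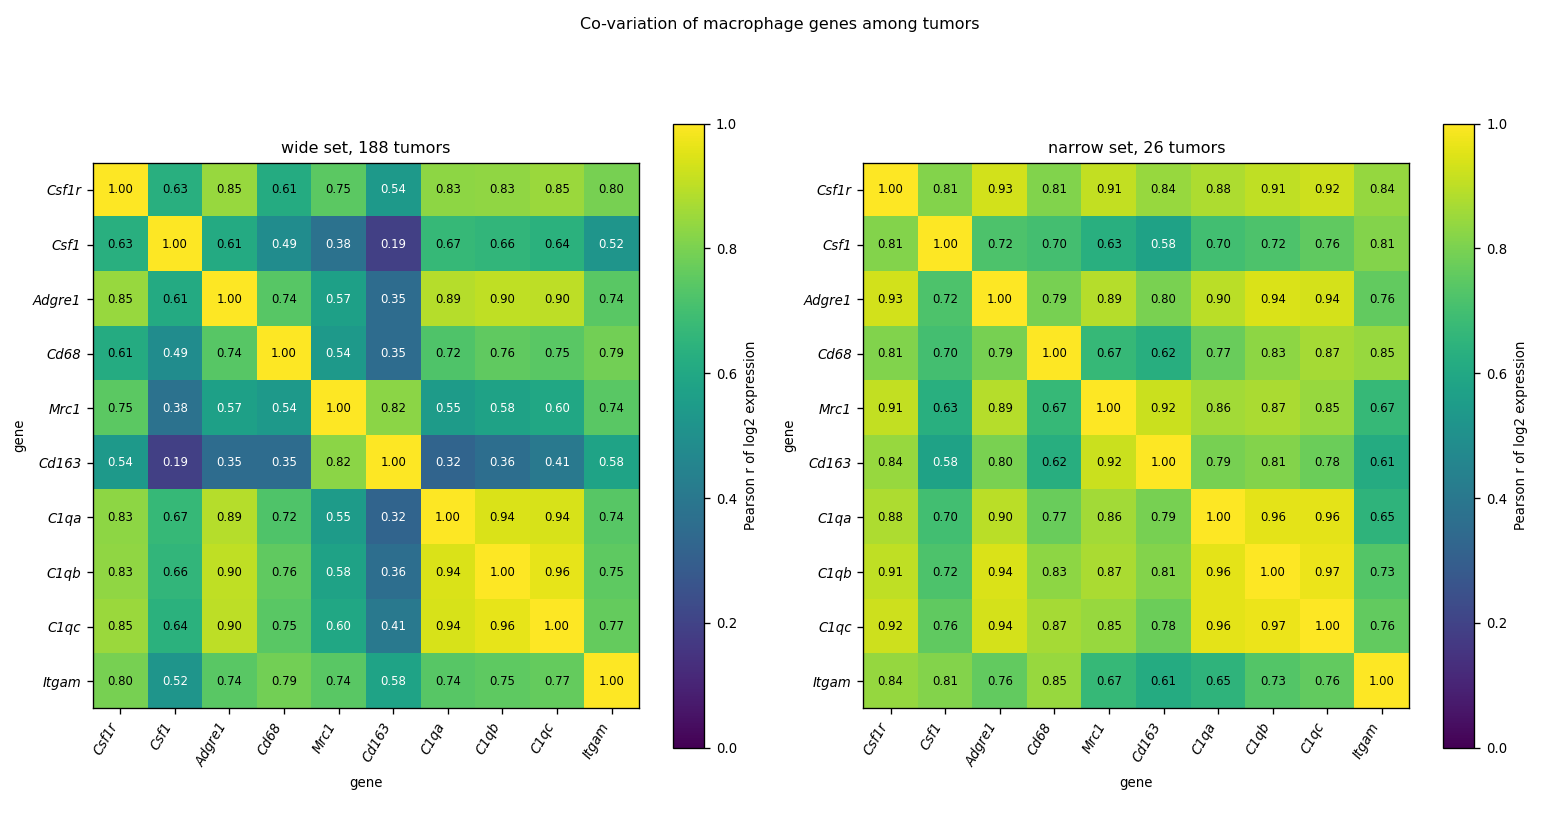
Pearson correlation of log2 expression between macrophage genes (both axes) among 188 tumors of the wide set (left) and 26 of the narrow set (right). In the wide set the C1q chains with Adgre1 form the brightest group, Cd163 is brightest with Mrc1 (0.825), and the darkest cell is Csf1 with Cd163 at 0.19.

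A few tumors held the high ends of most of the 10 genes. The F1BX tumors 187T1 and 187T2, from the same mouse by their names, and the F1 tumor F21T3 were each among the 5 highest of 188 in all 10 genes. In 187T1, Csf1r was 11.65 against a median of 9.30 over the wide set, Adgre1 was 11.18 against 8.85 and Mrc1 was 11.39 against 8.52. Their Erbb2 was 12.04, 11.73 and 11.94. Without these 3 tumors the median correlation of the 45 pairs was 0.644. At the low end, 056T1 was among the 5 lowest in 7 genes, and 236T1 and P21T1 in 5 each. Tumor 168T1, among the 5 highest in 6 genes, had an Erbb2 of 9.32, the lowest of the wide set.

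In the 26 tumors of the narrow set the median correlation was 0.813, from 0.578 for Csf1 with Cd163 to 0.972 for C1qb with C1qc. Adjusted permutation p was under 0.05 for all 45 pairs by r and for 42 by rho. Without the 3 tumors of low Erbb2 the median was 0.779. One of these, 092T1, had the highest Csf1r (11.50), Csf1 (9.64), Cd68 (11.83), Mrc1 (11.08), Cd163 (8.78), C1qc (11.25) and Itgam (10.41) among tumors of the narrow set. The others, 076T1 and F1_26T1, were below the tumor median in Mrc1 (7.71 and 7.72 against 7.84) and Cd163 (6.04 and 6.26 against 6.48). Both were above it in Csf1, Cd68, C1qa and Itgam, and on either side of it in Csf1r, Adgre1, C1qb and C1qc. F1_27T1, with an Erbb2 of 12.04, had the highest Adgre1 (9.65), C1qa (11.25) and C1qb (11.33).

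The 10 genes differed in how widely they varied. In the wide set the SD over tumors was 0.868 for Mrc1 and 0.801 for Cd163, above those of 98.0% and 97.5% of all genes, whose median SD was 0.224. Mrc1 ranged from 6.42 to 11.39, a 31.3-fold range, and Cd163 from 5.42 to 9.81, a 20.9-fold range. The SD was 0.302 for Csf1, with a 3.79-fold range, and 0.434 to 0.566 for the others. A range on the log2 scale of these arrays may be compressed at low signal, and no detection values were used here.

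Tumors of one mouse were about as different as tumors of different mice in most of the 10 genes. Over 78 pairs of tumors from the same mouse and 10208 pairs from different mice of the same background, the median absolute log2 difference was 0.272 against 0.379 for C1qa, a ratio of 0.719, and 0.344 against 0.387 for Adgre1. C1qb and C1qc had ratios of 0.793 and 0.783. For Csf1r, Csf1, Cd68, Mrc1, Cd163 and Itgam the ratio was 0.994 to 1.13. Pairs share tumors and mice, so these are descriptions. The largest difference within a mouse was 4.87, for Mrc1.

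Genes outside the 10 whose levels followed each of them most closely were named from the same 188 tumors. For Csf1r these were Cyth4, Axl, Nckap1l, Inpp5d and Laptm5 (r = 0.887 to 0.893), and for Adgre1 they were Laptm5, Itgb2, Pld4, Tyrobp and Nckap1l (0.890 to 0.916). For C1qa they were Ctss, Pld4, Apobec1, Ptprc and Itgb2 (0.894 to 0.915), for C1qb Pld4, Fcer1g, Nckap1l, Itgb2 and Il10ra (0.900 to 0.925) and for C1qc Laptm5, Fcer1g, Pld4, Tyrobp and Il10ra (0.897 to 0.920). Several of these encode leukocyte proteins, such as the CD18 integrin chain (Itgb2) and the signaling adaptors DAP12 (Tyrobp) and the Fc receptor gamma chain (Fcer1g).

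Cd68 was followed by Adam8, C3ar1, Lilr4b, Slc37a2 and Il7r (0.854 to 0.893), and Itgam by Fcgr2b, C5ar1, Alox5ap, Ms4a6d and Cd53 (0.863 to 0.914). Mrc1 was followed by F13a1 (0.938), a transglutaminase made by macrophages, and by Medag, Col3a1, Svep1 and Lrp1 (0.886 to 0.901), of which Col3a1 encodes fibrillar collagen and Svep1 an extracellular matrix protein. Cd163 was followed by Ccl9, Adgrd1, Dpep1, Clmp and Ndn (0.806 to 0.835). Csf1 had no gene at 0.7 or above, and Coro1a (0.690), Vav1, Clec5a, Fcgr1 and Axl came next to it.

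The 10 genes were also set against the mean of each of 18 lists of other genes. In 188 tumors, Mrc1 and Cd163 had r = 0.900 and 0.779 with the mean of 8 fibroblast genes (rho = 0.887 and 0.773, both with an adjusted permutation p of 2e-05 for r over 180 relations). For Mrc1 this held within FVB, F1 and F1BX tumors (0.907, 0.881 and 0.908). C1qb had r = 0.560 and rho = 0.452 with the same list, which holds Col3a1. The mean of 10 genes of tissue-resident macrophages, F13a1 among them, had r = 0.932 with Mrc1, and that of mast cell genes had r = 0.726 with Cd163.

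With MHC class II genes the order was the other way round, with r = 0.645 for Adgre1, 0.637 for C1qc and 0.259 for Mrc1. These values pool the backgrounds, and Adgre1, C1qc and most MHC class II genes were also higher in F1 than in FVB tumors. The part of that difference in this order was not tested. T cell genes had r = 0.437 with C1qa (rho = 0.414, adjusted permutation p = 7.06e-05 for r) and 0.409 with Adgre1, but 0.127 with Mrc1 and -0.0131 with Cd163. Whether these correlations differed from each other was not tested. Monocyte recruitment genes, phagocytosis and lysosome genes and other complement genes were positively correlated with all 10 genes, from 0.429 to 0.882 over the 3 lists.

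Neutrophil genes had r = 0.206 to 0.483, the highest for Itgam (rho = 0.319), and B and plasma cell genes had 0.194 to 0.429. Dendritic cell genes had 0.253 to 0.558, endothelium 0.450 to 0.639, basal epithelium 0.235 to 0.521, adipocyte genes 0.121 to 0.585, macrophage activation genes 0.367 to 0.491 and CSF and IL-34 signaling genes 0.419 to 0.753. Proliferation genes ran against all 10, from -0.419 for Csf1r to -0.159 for Cd163 (adjusted permutation p = 1.03e-04 and 0.21 for r). Luminal epithelium genes had r of -0.112 to 0.0254. Over the 180 relations, an adjusted permutation p under 0.05 by r and by rho was reached for 6 and 6 of the 10 genes with T cells, 9 and 3 with neutrophils, 3 and 3 with adipocytes, 7 and 5 with proliferation and 3 and 1 with the luminal list. These lists mark the cells a tumor can hold, and what share of each correlation is due to the makeup of the tumor piece was not tested.

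**Figure D4:**
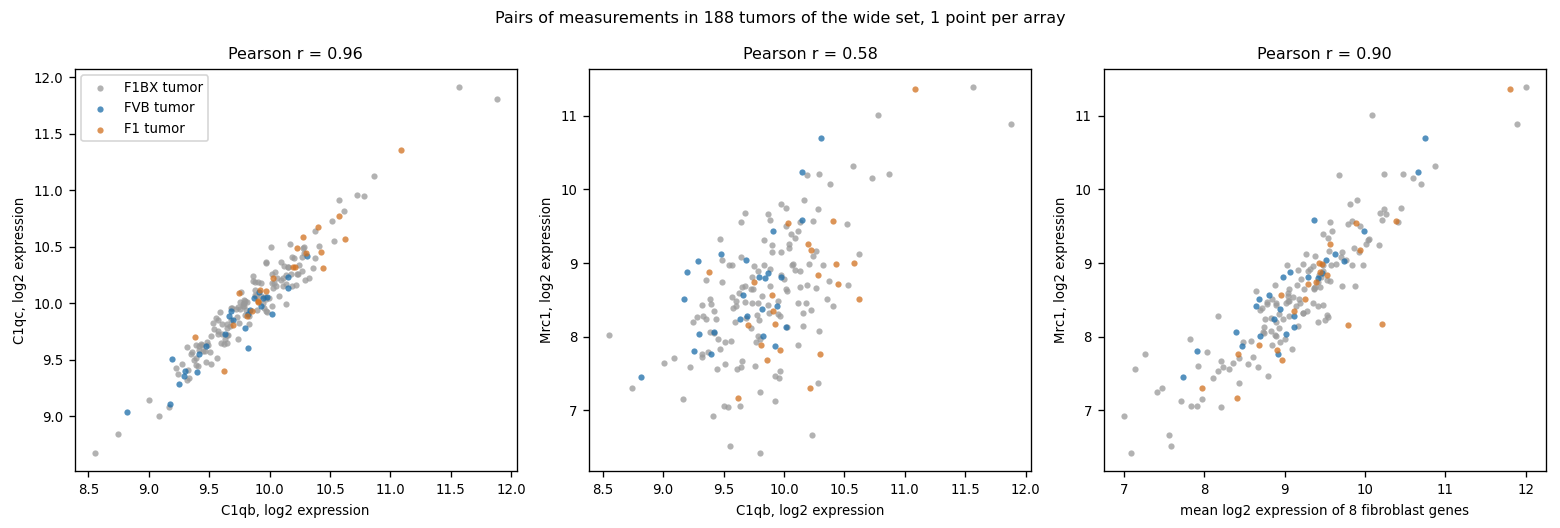
Log2 expression in the 188 tumors of the wide set, 1 point per array, colored by background: C1qb against C1qc (left), C1qb against Mrc1 (middle) and the mean of 8 fibroblast genes against Mrc1 (right). C1qb and C1qc lie on a narrow line (r = 0.96), C1qb and Mrc1 scatter (0.58), and Mrc1 follows the fibroblast genes (0.90).

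**Figure D5:**
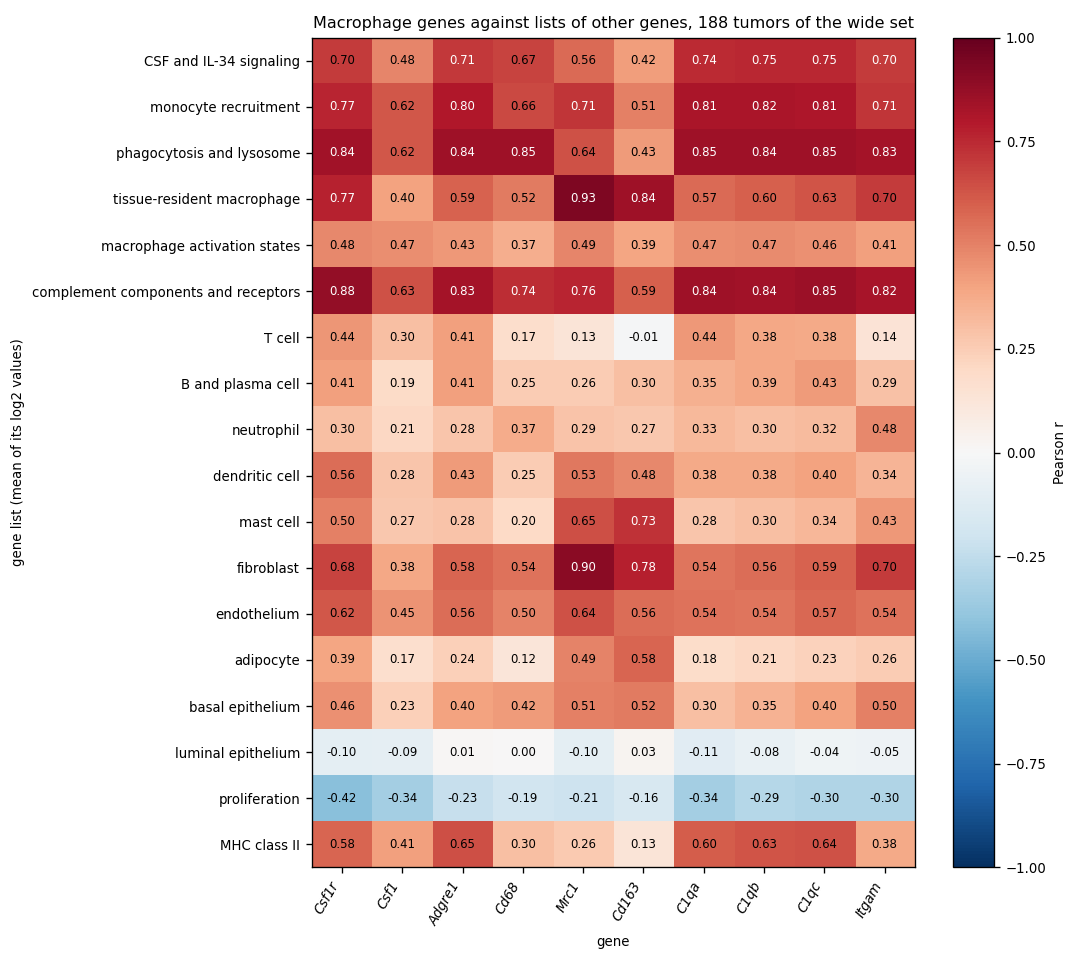
Pearson correlation (color) of each macrophage gene (x axis) with the mean log2 expression of 18 lists of genes (y axis) in 188 tumors of the wide set. Fibroblast and tissue-resident macrophage genes are highest for Mrc1 and Cd163, and proliferation genes are negative for all 10 genes.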

How the data were processed

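The authors deposited log2 values normalized by RMA (robust multiarray average, Affymetrix expression console, per the methods of the study), with 1 sample per array. Of 35556 probe sets, 21789 had 1 gene symbol. The 10 genes and all gene lists were chosen with earlier results of these data known. Groups came from the labels. A gene was represented by its single-symbol probe set of highest mean over all arrays. Comparisons used limma 3.58.1 in R 4.3.3 on group means, within the wide or the narrow set (divided at an interquartile range of 2.8), with the mouse as a random block where mice repeat (consensus correlation 0.0906 in the wide set) and Benjamini-Hochberg adjustment over all probe sets; limma stood in place of the SAM test of the methods. The methods' limits (FDR of at most 0.005 and fold of at least 2) were kept for tumors against glands, and an adjusted p under 0.05 elsewhere. Correlations used Python 3.11.15 and 1 tumor per mouse for p (100000 permutations, smallest p 1e-05). Named beyond the 10 genes were, per comparison, up to 5 called list genes with the largest change in each direction, the 5 nearest genes of each, and markers of lists that moved with a result; further list genes were named after their values were seen. The fit was tested on simulated data. Arrays have no read depth, so their number sets the precision. The labels do not say whether tumors of different names are all separate, and p-values measure the spread between these arrays.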

Additional observations from a re-analysis of the deposited data

Results flagged for a closer look

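Csf1 was 9.24 in FVB MMTV-ErbB2 gland replicate 3, with the next lowest of the 8 glands at 11.10, and the gap was 0.712 of the whole range. Cd68 was 11.71 in F1_27T1, with the next highest of the 6 F1 tumors of the narrow set at 9.61, and the gap was 0.724 of the range. Both exceeded Dixon's 95% critical value. In all, 20 such groups were examined, and chance flags about 1 in 20.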

How the results depend on the processing

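Of 720 values of single genes under alternative settings, 706 kept their direction or side of the threshold or were called in neither fit (52 of these turned sign), 11 fell below the threshold, 2 rose above it and 1 reversed. In tumors against glands the count of called genes was 3 when each gland was left out in turn, and 4 with all arrays of both sets, where Adgre1 passed (1.36). Every gland was in the narrow set, so that fit mixes the array set with the difference between tumors and glands. In F1BX tumors, narrow minus wide set was -0.98 for Adgre1. In F1 against FVB tumors it fell from 4 to 2 with all arrays of both sets, and in F1BX against FVB tumors from 1 to 0, also with the set as a term, where Adgre1 had 0.32 and an adjusted p of 0.0553 from limma. Between the sets it fell from 7 to 1 with quantile normalization, where Csf1r reversed to 0.0491.

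Counts over all probe sets moved more. With all arrays of both sets, 967 were higher and 2265 lower in F1 than FVB tumors, 598 and 1356 in F1BX than FVB, 36 and 64 in F1BX than F1, and 6232 and 3794 in tumors than glands. With 1 array per mouse F1BX against FVB gave 720 and 694, and with the set as a term F1BX against F1 gave 356 and 414. Quantile normalization gave 2 and 2 for the interaction. Of the gland comparisons, MMTV-ErbB2 against wild type gave 485 and 172 with all arrays, and 34 and 17 without F1 MMTV-ErbB2 gland replicate 1 to 206 and 62 without F1 wild type gland replicate 1; F1 against FVB gave 1731 and 762 with all arrays, 2482 and 3724 without FVB MMTV-ErbB2 gland replicate 1 and 1626 and 1543 without replicate 2, against 1 and 0 without either F1 MMTV-ErbB2 gland. Fitted as glands alone, both gave 0.

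The replicate block, fitted over the glands alone, called 0 of the 10 genes and 0 probe sets in both gland comparisons. Glands of the same number had deviations correlated from -0.187 to 0.394, so the numbers were not taken as pairing. Of the median correlation over 45 pairs, 0.723, the values without 187T1, 187T2 and F21T3 (0.644), by Spearman rho (0.593) and without tumors of low Erbb2 (narrow set, 0.779) were chosen after seeing the data. No gene had another single-symbol probe set to try, and no mouse repeats in the narrow set, so fits without the block or with 1 array per mouse are the same there. Signal over background could not be checked.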
